A study of Mus musculus with 8 samples.

Results

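The regulators described here are 9 transcription factor genes of epidermal differentiation, Trp63, Klf4, Klf5, Grhl1, Grhl2, Grhl3, Ovol1, Ovol2 and Zfp750, and the accessible chromatin around them in 4 cell populations of the mouse hair follicle. Accessible sites were taken from the 4 deposited ATAC-seq peak lists. A peak was given to one of these genes when that gene was the nearest protein-coding gene span to the peak's midpoint, within 100 kb, with a distance of 0 inside the gene (mm10). Overlapping peaks of the 4 lists were joined into sites, and a site was a member's when at least 1 of its peaks was. The 9 genes held 139 of 114956 sites, of which 72 lay inside a gene span. The members were chosen by gene name and not by their accessibility values, though with earlier results of these data known.

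These factors build and maintain stratified epithelium. Trp63 encodes p63, the p53-family regulator that basal epithelial cells depend on. KLF4 and KLF5 are zinc finger proteins, KLF4 known for barrier formation in the upper epidermis and KLF5 for growth of epithelial progenitors. The grainyhead-like factors GRHL1, GRHL2 and GRHL3 switch on genes of cell junctions and of the skin barrier. OVOL1 and OVOL2 are zinc finger repressors that hold cells in the epithelial state, and Zfp750 (ZNF750 in human) is a target of p63 that drives terminal differentiation in human keratinocytes. In the follicle, stem cells rest in the bulge and the hair germ during telogen and give rise in anagen to transient amplifying cells (TACs), the fast dividing progenitors of the hair shaft and its sheaths.

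ATAC-seq marks open DNA by the insertion of adapters with a transposase. All cells came from back skin of mice of mixed sex, with 2 samples per population. Bulge cells were sorted for GFP, CD34 and the integrins α6 and β1, and hair germ cells for GFP and both integrins but no CD34, from Lgr5-eGFP-ires-CreER mice at postnatal day 55, in the second telogen. Basal TACs came from mice of the same strain at postnatal day 30, in anagen, and were negative for GFP, CD34 and SCA1, positive for P-cadherin and high in integrin β1. Suprabasal TACs came at postnatal day 30 from K14-H2BGFP mice, in which the promoter of keratin 14 drives a histone-GFP fusion, and were negative for CD34 and integrin α6, with low GFP. In the Lgr5 allele GFP reports cells that use the Lgr5 locus, so both GFP gates select on a gene's activity. Hair cycle stage and age coincide here and cannot be told apart. Strain differs between the suprabasal TACs and all other populations, so a comparison with them is one of strain as well, and the parts of strain and population cannot be told apart.

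The authors called 1 peak list per population on both samples together, so no spread between replicates is known, and no p-value is given. Counts of sites past 2-fold describe these lists alone. Level here means summit coverage, the authors' number of fragments over the highest point of a peak, per 1000000 fragments of that list (FPM). The lists rest on 24065469, 11053351, 30824845 and 47852893 fragments in lineage order from bulge through hair germ and basal TAC to suprabasal TAC. Intervals are exact 95% intervals for counting error only, from the Poisson distribution for a level and from the Clopper-Pearson method for a ratio. A site without a peak in a list was below what the caller could detect there and is not shown to be closed: the level that 95% of a list's peaks exceed was 0.623, 0.814, 0.584 and 0.397 FPM from bulge to suprabasal TAC. Contrast over background also differed, with a median fold enrichment over local background, as the authors' caller gave it, of 7.48, 7.14, 6.71 and 4.79 along the same order. In such mixed samples, fewer cells with an open site and less openness per cell cannot be told apart. Markers of epithelium (Krt5, Krt14, Cdh1, Epcam) held 33, 31, 27 and 31 sites from bulge to suprabasal TAC, bulge markers (Cd34, Nfatc1, Lhx2, Sox9, Krt15, Lgr5) 87, 73, 60 and 53, and TAC markers (Lef1, Msx2, Hoxc13, Shh, Cdh3) 36, 40, 61 and 84. Cd34, Lgr5, Krt14 and Cdh3 (P-cadherin) were used in the sorts, as surface markers or GFP reporters, so their sites are no independent check. Cdh3 held 12, 10, 10 and 13 sites, while each other TAC marker held more in both TAC lists than in the bulge. Of the bulge markers, Lhx2 held 13, 13, 11 and 15, while each other one held fewer in both TAC lists than in the bulge.

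RefSeq promoter sequence (GRCm38.p6) was at hand for Klf4, Grhl1, Grhl3 and Ovol2. The stretches upstream of the gene spans of Grhl1, Grhl3 and Klf4 are shown because their windows differed in their overlap with peaks. The Grhl1 window was under a peak in all 4 lists and the Klf4 window in none. The Grhl3 window was under a peak in the bulge and both TAC lists, while the hair germ peak of the same site ended outside it. They run 5′ to 3′ along the gene, on chr12:24572037-24572231 (plus strand), chr4:135573633-135573882 (minus strand) and chr4:55532476-55532725 (minus strand), and capitals mark matches to searched motifs.
Grhl1: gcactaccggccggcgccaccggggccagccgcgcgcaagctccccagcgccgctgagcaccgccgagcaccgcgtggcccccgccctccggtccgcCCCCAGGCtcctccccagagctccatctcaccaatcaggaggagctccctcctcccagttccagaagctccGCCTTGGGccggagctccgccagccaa
Grhl3: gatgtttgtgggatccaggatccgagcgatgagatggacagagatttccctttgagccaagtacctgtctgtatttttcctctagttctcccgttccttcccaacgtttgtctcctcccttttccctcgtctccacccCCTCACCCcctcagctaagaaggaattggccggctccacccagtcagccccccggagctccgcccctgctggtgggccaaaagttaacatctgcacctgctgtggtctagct
Klf4: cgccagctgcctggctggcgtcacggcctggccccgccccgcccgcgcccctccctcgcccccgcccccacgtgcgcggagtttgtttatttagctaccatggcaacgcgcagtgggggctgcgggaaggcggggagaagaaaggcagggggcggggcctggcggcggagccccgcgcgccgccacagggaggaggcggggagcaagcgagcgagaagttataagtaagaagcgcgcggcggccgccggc

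On both strands, with N for any base, the motifs searched were AACCNGTT for GRHL, GGGTGNGG for KLF, CCGTTA for OVOL, the paired core letters of the p63 site, CCNNAGGC for ZNF750, TGANTCA for AP-1 and the full palindromic site of NFI. Grhl1 held 2 ZNF750 matches, at positions -153 to -146 and -82 to -75 counted from the RefSeq start site, which lies inside the gene span, and Grhl3 held 1 KLF match at -112 to -105. A second Grhl1 window inside the gene (chr12:24580469-24580768) had no peak in any list and held 1 further ZNF750 match, at -69 to -62. None of the matches overlapped another motif. Of 32851 RefSeq promoter windows of 300 bases, 24.1% held the ZNF750 letters and 16.6% the KLF letters, so both matches are common ones. The shares for the other motifs were 2.09% (GRHL), 2.76% (OVOL), 0.712% (p63), 7.81% (AP-1) and 0.0365% (NFI). The Klf4 window had no match, and its 300 bases fell in a gap of the peak lists, between a site that ended at 55532309 inside the gene and one that began at 55532726, the base next to the window. GC content was 74.3% in the Klf4 window and 75.3% in that of Grhl1, against a median of 52.7% over all windows.

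Sites were most numerous in suprabasal TACs. From bulge to suprabasal TAC the 9 genes together held 84, 80, 87 and 116 sites, while all genes and intergenic stretches held 61348, 54702, 74736 and 70230. Trp63 accounted for 42 of the 139 sites and Grhl2 for 32, while Klf5 had 18, Klf4 15, Grhl3 12, Grhl1 10, Ovol1 6, Ovol2 3 and Zfp750 1. Every member but Zfp750, with 1 site in each list, had more sites in suprabasal than in basal TACs. The counts were 37 in suprabasal and 30 in basal TACs at Trp63, 15 and 7 at Klf5, 12 and 10 at Klf4, and 5 and 4 at Ovol1.

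**Figure D1:**
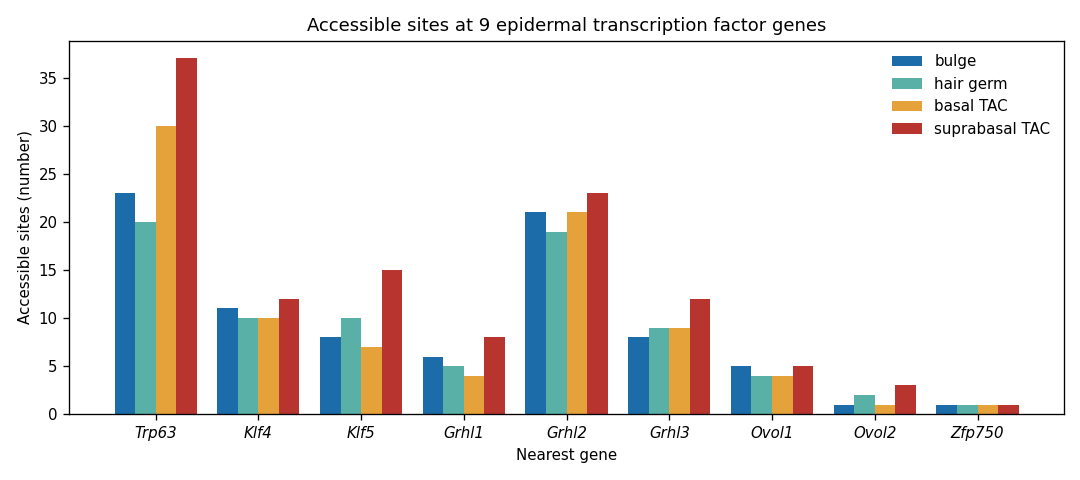
Number of accessible sites (vertical axis) nearest to each of the 9 genes in the 4 peak lists, in lineage order within each gene. The suprabasal TAC bar is the highest or equal highest at every gene, with 37 sites at Trp63 and 15 at Klf5.

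A common core of sites was held by all lists. Of the 139 sites 57 were in all 4 lists, or 41%, against 27.3% of all sites. Sites of suprabasal TACs alone numbered 27 (19.4%, against 15.5% of all sites), while sites of basal TACs alone numbered 3 (2.16%, against 14.5%), at Grhl2 and Trp63. Both TAC lists and neither telogen list shared 14 (10.1%, against 10.8%). Only telogen lists held 15 (10.8%, against 15.9%). The 27 sites of suprabasal TACs alone were mostly weak, with levels of 0.334 to 3.53 FPM and a median of 0.711. They lay at Trp63 and Klf5 (6 each), Grhl2 (5), Grhl1 (4), Klf4 and Grhl3 (2 each), and Ovol1 and Ovol2 (1 each). Few member sites lay close to a gene end: 6 of 139 had their midpoint within 1 kb of one (4.32%, 1.60 to 9.16), against 12.3% of all sites. Their median length was 850 bp, against 704 bp for all sites. A site overlapped an end of the gene span at 5 of the 9 members, Klf5, Grhl1, Grhl2, Grhl3 and Ovol2.

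Along the lineage, levels at the common sites were mostly lower in TACs than in telogen, as over the whole series. At 3 sites the values were higher at every step, though not each step was beyond counting error. The median level over the 57 common sites was 4.28, 4.07, 2.66 and 2.57 FPM from bulge to suprabasal TAC, against 4.16, 4.25, 3.11 and 1.88 over all 31420 common sites. A lower level at every step was found at 17 of the 57 (29.8%, against 32.1% of all common sites), at Grhl2 (6), Trp63 (4), Klf4, Grhl1 and Grhl3 (2 each) and Ovol2 (1). A higher level at every step was found at 3 (5.26%, against 1.58% of all common sites): the site of Zfp750 and a pair of Ovol1 sites, one inside the gene and one 4.76 kb from it. Both counts go by the values alone. At the Ovol1 site inside the gene the ratio was 1.16 for hair germ to bulge (0.689 to 1.90) and 1.09 for basal TACs to hair germ (0.692 to 1.77). By fold enrichment that site and the Zfp750 site were not higher in suprabasal TACs than in the bulge, while the other Ovol1 site was. By the median over its own common sites, Ovol1 was highest in suprabasal TACs (5.78 FPM) and lowest in the bulge (1.83), while Klf4 had 2.71 in suprabasal TACs and 6.90 in the bulge. Trp63 had 2.07 in suprabasal TACs and 4.36 in the bulge, and Grhl3 had 3.26 and 3.74 in the same populations.

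**Figure D2:**
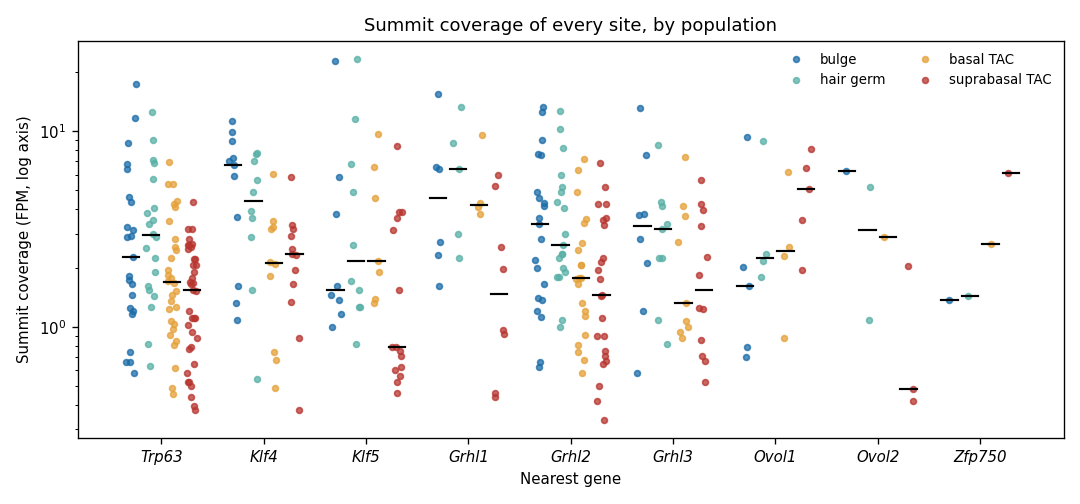
Summit coverage in FPM (vertical log axis) of every site of the 9 genes, by gene and population in lineage order. Each point is 1 site in 1 list and the black bars are medians over the sites that list holds. The Klf4 bar is highest in the bulge, at 6.73 FPM, and the Ovol1 bar in suprabasal TACs, at 5.08.

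Trp63 lies on chr16:25683763-25892088, a span of 208 kb that held 33 of its 42 sites. Its highest level in any list was at a site 7.91 kb above the higher-coordinate end of the span (chr16:25898811-25901188). That site had 17.5 FPM in the bulge (95% interval 15.8 to 19.2), 9.05 in the hair germ (7.36 to 11.0), 4.38 in basal TACs (3.67 to 5.18) and 0.439 in suprabasal TACs (0.272 to 0.671). All 4 intervals were apart, and the peak itself was 290 bp wide in suprabasal TACs and 1721 bp in the bulge. The level was 39.8-fold lower in suprabasal TACs than in the bulge (25.7 to 64.9), and of all 37288 sites those lists share only 0.059% had as low a ratio. Against basal TACs it was 9.98-fold lower (6.27 to 16.6). By fold enrichment over local background, and relative to the median of all shared sites, the direction was the same (log2 ratios against the bulge of -2.03 and -4.25).

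A second Trp63 site, 9.81 kb below the lower-coordinate end (chr16:25673330-25674584), was highest in basal TACs. It had no peak in the bulge, 1.27 FPM in the hair germ (0.692 to 2.13), 5.35 in basal TACs (4.57 to 6.23) and 0.522 in suprabasal TACs (0.338 to 0.771). Basal TACs were 4.23-fold higher than the hair germ (2.45 to 7.90), and suprabasal TACs 10.2-fold lower than basal TACs (6.70 to 16.3). At 22.9 kb below the gene the order of the TAC populations was the other way round, with 2.80 FPM in suprabasal (2.35 to 3.32) and 0.843 in basal TACs (0.551 to 1.24), a 3.32-fold difference (2.17 to 5.27). Neither telogen list had a peak there. A site inside the gene (chr16:25725040-25725992) also stood highest in basal TACs, with 2.82 FPM against 0.582 in the bulge, no peak in the hair germ and 0.940 in suprabasal TACs.

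Of its 42 sites, Trp63 had 15 in TAC lists alone, where 40.8% of all sites were, and 2 in telogen lists alone, against 15.9%. Of these 15, suprabasal TACs alone held 6, basal TACs alone 1 and both 8. Over the whole series those patterns made up 15.5%, 14.5% and 10.8% of all sites. Against the bulge, suprabasal TACs had 18 sites of their own among 41 (43.9%, against 34.9% of all sites), and the bulge 4 (9.76%, against 25.5%). At the 19 sites both lists held, the level was at least 2-fold lower in suprabasal TACs at 8 (42.1%, against 52.8% of all shared sites) and at least 2-fold higher at none (against 4.54%). The median log2 ratio there was -0.82, which lay 0.25 above that of all shared sites.

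**Figure D3:**
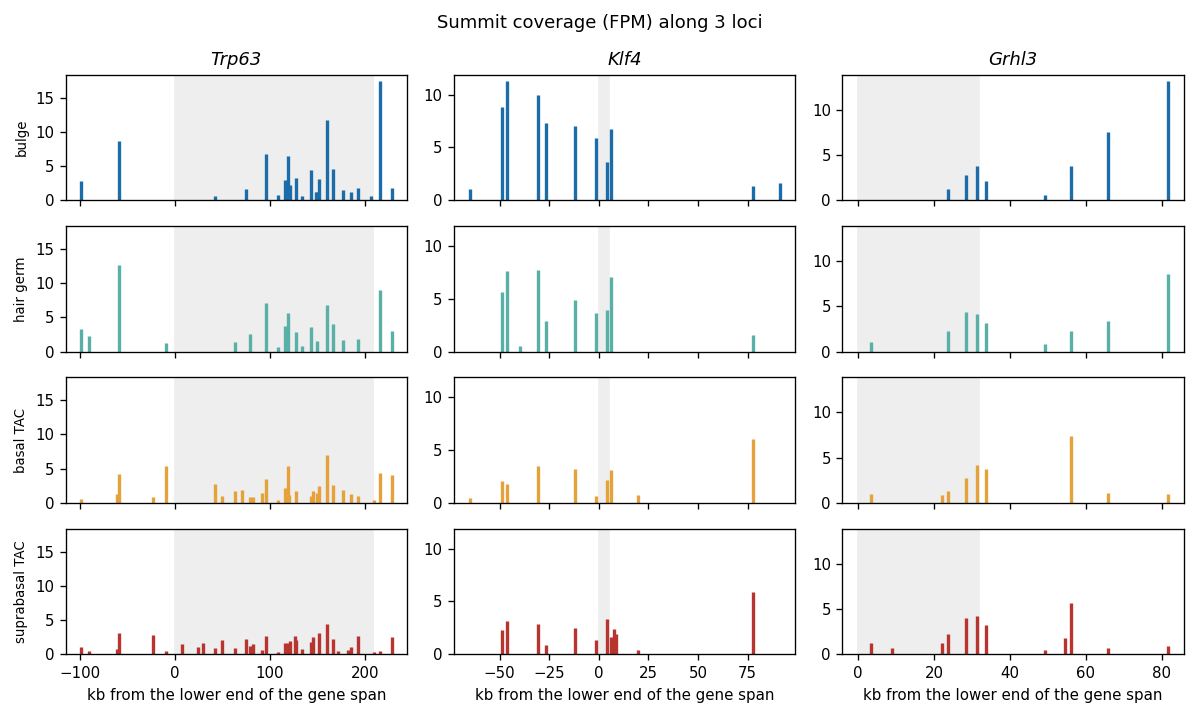
Summit coverage in FPM (vertical axes) of each site along the Trp63, Klf4 and Grhl3 loci, by distance in kb from the lower-coordinate end of the gene span (horizontal axes), with 1 row per population and the gene span in grey. The axis has the same scale within a column. Beyond the right end of Trp63 a bar is at 0.439 FPM in suprabasal TACs and at 17.5 in the bulge, one beyond Grhl3 is at 0.857 in suprabasal TACs and at 13.2 in the bulge, and the Klf4 bar at 77.8 kb is tall in the TAC rows.

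Klf4 (chr4:55527137-55532475) had a row of distal sites below the gene that were strong in the bulge and weak in TACs. The highest, 46.4 kb below the gene (chr4:55480085-55481365), had 11.3 FPM in the bulge (10.0 to 12.7), 7.60 in the hair germ (6.06 to 9.41), 1.82 in basal TACs (1.37 to 2.36) and 3.18 in suprabasal TACs (2.69 to 3.72). The site 26.8 kb below the gene had 7.31 in the bulge, 2.90 in the hair germ, no peak in basal TACs and 0.878 in suprabasal TACs. That made it 8.33-fold lower in suprabasal TACs than in the bulge (5.92 to 12.0). Next to the gene, at 1.44 kb below it, the values were 5.90, 3.62, 0.681 and 1.34 in lineage order. Beside the start, the site that begins at the base next to the promoter window (chr4:55532726-55534150) had 6.73 in the bulge (5.73 to 7.85), 7.06 in the hair germ (5.58 to 8.81), 3.15 in basal TACs (2.55 to 3.84) and 1.65 in suprabasal TACs (1.31 to 2.06), so that the telogen intervals overlapped and both TAC levels lay below them. Fold enrichment there was 5.24, 5.36, 5.57 and 1.99 in lineage order, so that by this measure basal TACs were not lower. Of the 9 Klf4 sites shared by suprabasal TACs and bulge, 7 were at least 2-fold lower in suprabasal TACs (77.8%, against 52.8% of all shared sites), and relative to the series 2 were. The median log2 ratio of the 9 was -1.83, and -0.77 relative to all shared sites. By fold enrichment over local background it was 0.15, the other direction. The local background implied by the authors' values differed as well, and at the site 46.4 kb below the gene it was 0.404 FPM in suprabasal TACs and 1.77 in the bulge.

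One Klf4 site ran against the others. At 72.5 kb above the gene (chr4:55603958-55605919) the level was 1.33 FPM in the bulge (0.910 to 1.88), 1.54 in the hair germ (0.896 to 2.46), 6.03 in basal TACs (5.20 to 6.97) and 5.85 in suprabasal TACs (5.19 to 6.58). Within each hair cycle stage the intervals overlapped, and between the stages they did not. Basal TACs were 3.92-fold higher than the hair germ (2.39 to 6.88), and suprabasal TACs 4.40-fold higher than the bulge (3.05 to 6.56). By fold enrichment the second difference was 0.19 on the log2 scale. Suprabasal TACs alone had 2 sites within the first 4 kb above the gene, the higher one at 2.36 FPM and 2.22 kb away. A site 14.6 kb above the gene, held by TACs alone, had 0.376 in suprabasal and 0.746 in basal TACs.

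Klf5 (chr14:99298691-99313412) carried the highest level of all 139 sites, over the lower-coordinate end of its span (chr14:99298246-99300040). It had 22.7 FPM in the bulge (20.9 to 24.7), 23.4 in the hair germ (20.7 to 26.5), 9.67 in basal TACs (8.60 to 10.8) and 8.38 in suprabasal TACs (7.58 to 9.24). The telogen populations had overlapping intervals, as did the TAC populations, and suprabasal TACs were 2.71-fold lower than the bulge (2.38 to 3.09). This was near the shift of the whole series, with a log2 ratio of -0.37 relative to all shared sites. Fold enrichment at this site was 11.6, 11.0, 12.4 and 9.44 in lineage order, so that by this measure the populations did not pair by stage. Within telogen, all 8 Klf5 sites that both lists held had a higher level in hair germ than in bulge, with a median log2 ratio of 0.74. Of all 47948 sites those lists share, 23578 were higher in the hair germ, and the median over all was -0.01. By fold enrichment the Klf5 median was 0.04, against -0.09 for all shared sites. Not every Klf5 ratio was beyond counting error. The ratio was 1.12 at 11.6 kb above the gene (0.586 to 2.07) and 1.96 at 78.9 kb (1.53 to 2.51). The largest of these differences was at 98.6 kb, near the 100 kb limit, with 4.89 FPM in the hair germ and 1.45 in the bulge.

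Between the TAC populations, suprabasal TACs had 8 Klf5 sites of their own among 15 (53.3%, 26.6 to 78.7, against 22.7% of all sites), and basal TACs none (against 27.4%). Of the 7 shared sites 2 were at least 2-fold higher in suprabasal TACs (28.6%, against 3.75% of all shared sites) and 2 at least 2-fold lower (28.6%, against 27.5%). By fold enrichment the log2 ratios of the higher pair were 0.29 and 0.33, and those of the lower pair -1.54 and -1.19. The median of the 7 by that measure was -0.39, against -0.32 for all shared sites. At 26.8 kb above the gene (chr14:99339267-99341129) the level was 3.89 FPM in suprabasal (3.35 to 4.49) and 1.33 in basal TACs (0.955 to 1.80), with no peak in telogen. At 69.9 kb above it the level was 0.752 in suprabasal and 2.17 in basal TACs, 2.89-fold lower (1.90 to 4.46). Inside the gene a site had 1.62, 2.62, 1.39 and 3.13 FPM in lineage order.

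Grhl1, which controls desmosomal genes, lies on chr12:24572232-24617391. The site over its start (chr12:24571524-24573967), whose upstream sequence is given above, had a lower value at each step of the lineage. The levels were 15.5 FPM in the bulge (14.0 to 17.2), 13.2 in the hair germ (11.2 to 15.5), 9.51 in basal TACs (8.45 to 10.7) and 5.96 in suprabasal TACs (5.28 to 6.69). The telogen intervals overlapped, with a ratio of 0.850 for hair germ to bulge (0.697 to 1.03). Suprabasal TACs were 2.61-fold lower than the bulge (2.23 to 3.05), or -0.32 on the log2 scale relative to all shared sites. By fold enrichment basal TACs were not below the hair germ at this site, at 12.43 against 11.24. A site 5.50 kb below the gene was held by telogen lists alone, with 2.26 FPM in the hair germ and 2.70 in the bulge. Inside the gene, one site peaked in basal TACs (2.33, 2.99, 4.31 and 2.57 FPM in lineage order), and another was lowest there (6.40, 8.69, 3.80 and 5.27). The site with the lowest ratio of suprabasal TACs to bulge inside the gene had 1.99 FPM in suprabasal TACs and 6.52 in the bulge.

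Grhl2, a regulator of E-cadherin and claudin genes, spans chr15:37232821-37363569. The site over its lower-coordinate end (chr15:37232165-37235143) had 13.3 FPM in the bulge (11.9 to 14.8), 12.7 in the hair germ (10.7 to 14.9), 7.20 in basal TACs (6.29 to 8.21) and 6.85 in suprabasal TACs (6.13 to 7.64). Levels paired by stage there too, and the suprabasal level was 0.11 above the median of all shared sites against the bulge on the log2 scale. Fold enrichment at this site was 9.05, 9.79, 9.78 and 9.08 in lineage order, so that by this measure the populations did not pair by stage. Inside the gene, the site with the lowest ratio had 3.37, 2.35, 1.78 and 0.418 FPM in lineage order, 8.05-fold lower in suprabasal TACs than in the bulge (4.89 to 13.9). Another inside the gene (chr15:37312578-37313832) was highest in suprabasal TACs, at 3.32 FPM (2.83 to 3.88), against 1.33 in basal TACs (0.955 to 1.80). A site 78.1 kb below the gene was held by telogen lists alone, at 4.34 FPM in the hair germ and 3.62 in the bulge.

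Grhl3, needed for barrier formation and epidermal wound closure, had an even level at its start and steep differences beyond it. At the start (chr4:135572534-135573803) the levels were 3.74, 4.16, 4.15 and 4.24 FPM in lineage order, and all 4 intervals overlapped, between 3.01 and 5.55. In suprabasal TACs against the bulge, this start site had a log2 ratio of 1.25 relative to all shared sites, though by fold enrichment the ratio was -0.69. At 49.9 kb above the gene (chr4:135622901-135624237) the level was 13.2 in the bulge (11.8 to 14.7), 8.50 in the hair germ (6.87 to 10.4), 0.941 in basal TACs (0.630 to 1.35) and 0.857 in suprabasal TACs (0.615 to 1.16). Basal TACs were 9.04-fold lower than the hair germ (5.91 to 14.2), a ratio that 0.558% of all sites shared by those lists reached, and suprabasal TACs 15.4-fold lower than the bulge (11.1 to 21.8). The site 34.2 kb above the gene had 7.52, 3.35, 1.07 and 0.711 in the same order, and was 10.6-fold lower in suprabasal TACs than in the bulge (7.31 to 15.8). Both were lower in suprabasal TACs by fold enrichment too, with log2 ratios of -1.56 and -1.51. A site inside the gene had 1.21, 2.26, 1.33 and 2.28 FPM, and suprabasal TACs alone held a site of 1.84 FPM 22.6 kb above the gene.

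**Figure D4:**
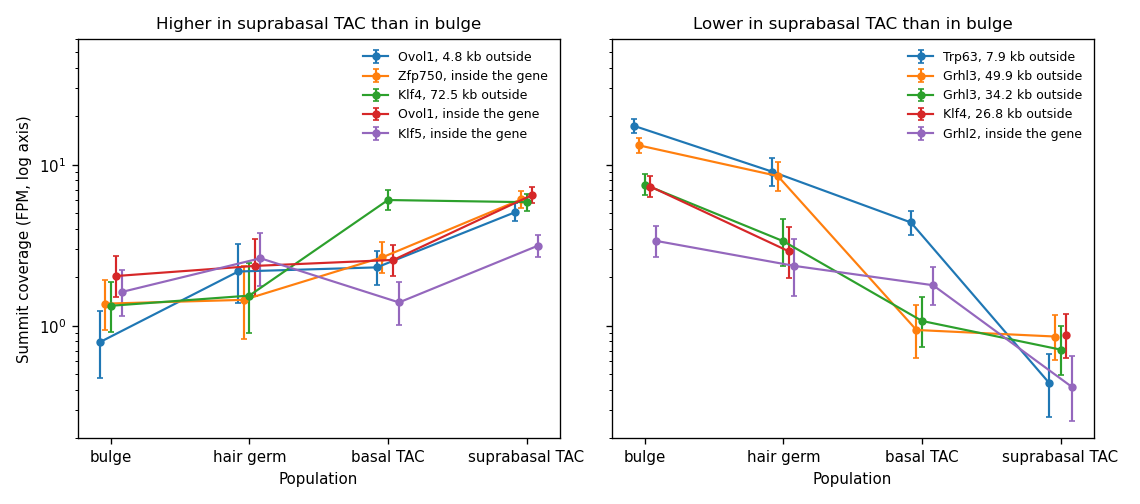
Summit coverage in FPM (vertical log axis) along the lineage at the 5 sites with the highest ratio of suprabasal TACs to bulge (left) and the 5 with the lowest (right), with exact Poisson 95% intervals for counting error. The line of the Klf4 site at 26.8 kb has no point in basal TACs, where it had no peak, and by fold enrichment over local background the Zfp750 site and the Ovol1 site inside the gene were not higher.

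By summit coverage the OVO-like genes differed from each other. By fold enrichment suprabasal TACs were below the bulge at both, with a median log2 ratio of -0.49 at Ovol1 and -0.27 at the 1 shared Ovol2 site. At Ovol1 (chr19:5549137-5560575), 3 of 4 sites shared by both TAC lists were at least 2-fold higher in suprabasal than in basal TACs (against 3.75% of all shared sites), and the level was higher at all 4. The one that was not 2-fold higher was placed nearest to Ovol1 by 1 of the 4 lists. By fold enrichment the median log2 ratio of the 4 was -0.19, the other direction. The site 4.76 kb below the gene (chr19:5544010-5544740) had 0.790 FPM in the bulge (0.475 to 1.23), 2.17 in the hair germ (1.39 to 3.23), 2.30 in basal TACs (1.80 to 2.91) and 5.08 in suprabasal TACs (4.46 to 5.76). The middle pair overlapped, and the bulge and suprabasal TACs stood apart from both. It was 6.43-fold higher in suprabasal TACs than in the bulge (4.03 to 10.9), a ratio reached by 0.161% of all sites those lists share, and higher by fold enrichment too (1.29 on the log2 scale).

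The Ovol1 site inside the gene (chr19:5553565-5556311) had 2.04, 2.35, 2.56 and 6.48 FPM in lineage order, 3.18-fold higher in suprabasal TACs than in the bulge (2.35 to 4.39). By fold enrichment its log2 ratio was -0.05, and the implied local background was 3.58-fold higher in suprabasal TACs. The strongest Ovol1 site, 19.0 kb below the gene, had 9.35, 8.87, 6.16 and 8.07 FPM. By peak midpoint 1 of the 4 lists placed it nearest to Ovol1, and in the other lists another gene was nearer. Suprabasal TACs alone held a site of 3.53 FPM 16.2 kb below the gene (chr19:5532444-5533395), the highest level of the 27 sites that only they had.

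At Ovol2 (chr2:144305175-144332080) the site over the gene start (chr2:144330201-144333408) followed the opposite order, with 6.23 FPM in the bulge (5.28 to 7.31), 5.16 in the hair germ (3.91 to 6.68), 2.89 in basal TACs (2.32 to 3.55) and 2.05 in suprabasal TACs (1.66 to 2.50). The suprabasal level was 3.04-fold lower than that of the bulge (2.34 to 3.97), or -0.54 on the log2 scale relative to all shared sites. By fold enrichment that order was not kept, with 7.08, 5.92, 7.44 and 5.89 from bulge to suprabasal TAC. The other two sites were inside the gene and weak, at 0.481 and 0.418 FPM in suprabasal TACs, the second also at 1.09 in the hair germ.

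Zfp750 (chr11:121510976-121519342) had 1 site, inside the gene (chr11:121515907-121518427), in all 4 lists. The gene overlaps Tbcd, so the site could be given to either. Its level was 1.37 FPM in the bulge (0.944 to 1.93), 1.45 in the hair germ (0.827 to 2.35), 2.66 in basal TACs (2.12 to 3.30) and 6.08 in suprabasal TACs (5.40 to 6.82). Telogen intervals overlapped, and suprabasal TACs stood above all others. The level was 4.43-fold higher in suprabasal TACs than in the bulge (3.09 to 6.57) and 2.29-fold higher than in basal TACs (1.78 to 2.96), ratios that 0.587% and 2.53% of all shared sites reached. The peak was 2521 bp wide in suprabasal TACs and 470 bp in the bulge. By fold enrichment the direction was the other way, at 5.10 in suprabasal TACs and 7.69 in the bulge, and the implied local background was 8.28-fold higher in suprabasal TACs. That background comes from windows of up to 10 kb, which contain the peak itself.

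In the hair germ against the bulge, both of telogen, the 9 genes differed little. Of 95 member sites in either list, 11 were in the hair germ alone (11.6%, against 9.92% of all sites) and 15 in the bulge alone (15.8%, against 19.7%). At the 69 shared sites, 3 were at least 2-fold higher in the hair germ (4.35%, against 5.79%) and 3 at least 2-fold lower (4.35%, against 5.14%). The median log2 ratio was 0.08, against -0.01 for all shared sites, and by fold enrichment it was -0.08, against -0.09. Relative to that median, 3 sites were at least 2-fold higher (against 5.96%) and 3 lower (against 5.03%). Both the counts and the median were near those of the series.

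In basal TACs against the hair germ, the step from telogen to anagen, a smaller share of the members' sites than of the series' sites was found in basal TACs alone. Of 102 sites, 22 were in basal TACs alone (21.6%, 14.0 to 30.8, against 38% of all sites), 12 of them at Trp63, and 15 in the hair germ alone (14.7%, against 15.2%). At the 65 shared sites, 3 were at least 2-fold higher in basal TACs (4.62%, against 7.75%) and 21 at least 2-fold lower (32.3%, against 24.1%). The sites higher by that rule were the ones described 9.81 kb below Trp63, 72.5 kb above Klf4 and, at Grhl3, 24.3 kb above the gene, where the level was 7.36 FPM in basal TACs and 2.26 in the hair germ. The median log2 ratio was -0.72, against -0.50 for all shared sites, while by fold enrichment it was -0.0009. Relative to that median, 5 sites were at least 2-fold higher (against 15.2%) and 10 lower (against 10%).

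In suprabasal against basal TACs more member sites were held by suprabasal TACs alone than by basal TACs alone, while at shared sites the median level was lower in suprabasal TACs. Of 124 sites, 37 were in suprabasal TACs alone (29.8%, 22.0 to 38.7, against 22.7% of all sites) and 8 in basal TACs alone (6.45%, 2.83 to 12.3, against 27.4%). When a site counted as missing from a list only if its peak also reached the level that 95% of that list's peaks exceed, 25 and 8 remained (20.2% and 6.45%), against 13.9% and 27.3% of all sites. Klf5, Grhl1, Grhl3, Ovol1, Ovol2 and Zfp750 had no site in basal TACs alone. At the 79 shared sites, 9 were at least 2-fold higher in suprabasal TACs (11.4%, against 3.75%) and 11 at least 2-fold lower (13.9%, against 27.5%). The sites at least 2-fold higher were at Ovol1 (3), Trp63 and Klf5 (2 each), Grhl2 and Zfp750 (1 each). The median log2 ratio was -0.18, against -0.57 for all shared sites, so that relative to the series 25 sites were at least 2-fold higher (against 10.4%) and 5 lower (against 13.4%). Among sites within 20 kb of the genes the median was 0.15, the other direction. By fold enrichment it was -0.18, against -0.32 for all shared sites, and 1 site was at least 2-fold higher and 10 lower. The share of all shared sites past 2-fold by this measure was not counted.

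In suprabasal TACs against the bulge, the ends of the lineage, 48 of 132 sites were in suprabasal TACs alone (36.4%, 28.2 to 45.2, against 34.9% of all sites) and 16 in the bulge alone (12.1%, 7.09 to 18.9, against 25.5%). With the same demand on a missing site, 32 and 16 remained (24.2% and 12.1%), against 22.2% and 25.5% of all sites. At the 68 shared sites, 4 were at least 2-fold higher in suprabasal TACs (5.88%, against 4.54%): the site of Zfp750, a pair at Ovol1, and the Klf4 site at 72.5 kb. At least 2-fold lower were 29 (42.6%, against 52.8%). The median log2 ratio was -0.80, against -1.07 for all shared sites, and relative to the series 21 sites were at least 2-fold higher (against 17.7%) and 7 lower (against 14.5%). Grhl3 and Ovol1 had medians above 0 (0.34 and 0.97), and by fold enrichment both were below it (-0.42 and -0.49). By fold enrichment 1 of the 68 sites was at least 2-fold higher and 12 were lower, and their median was -0.32, against -0.46 for all shared sites. The share of all shared sites past 2-fold by this measure was not counted, so these counts cannot be set against the series.

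**Figure D5:**
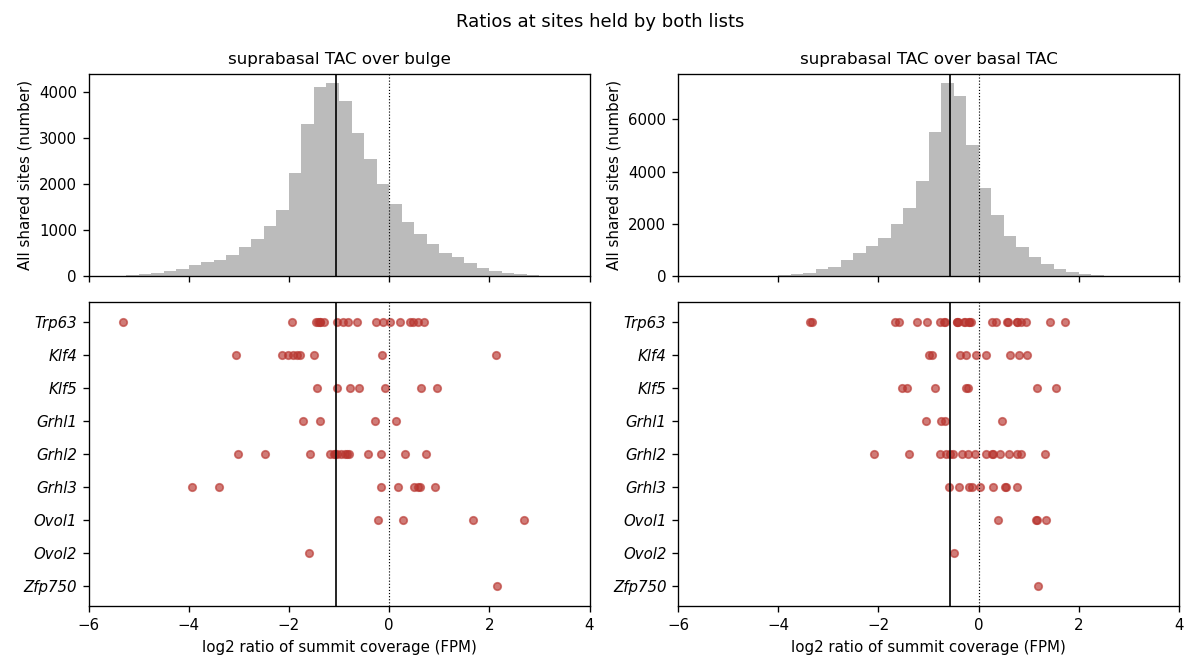
Log2 ratio of summit coverage in FPM (horizontal axes) at sites held by both lists, for suprabasal TACs over bulge (left) and over basal TACs (right). Histograms give all shared sites, the solid line their median (-1.07 and -0.57), and each point below is 1 site of the gene named. The Zfp750 point and all 4 Ovol1 points lie right of the solid line in both panels, and most Klf4 points lie left of it against the bulge.

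Genes related by role were set beside the members. Of all sites in either TAC list, 22.7% were in suprabasal TACs alone and 27.4% in basal TACs alone. In suprabasal against basal TACs, 12 other regulators of epidermal differentiation, among them Tfap2a, Cebpb and Gata3, had 58 of 179 sites in suprabasal TACs alone (32.4%) and 26 in basal TACs alone (14.5%). For 15 genes of epithelial identity and differentiation, such as Krt14, Tgm1 and Cdh1, these were 27 and 10 of 93 (29.0% and 10.8%). For 13 family relatives of the members, such as Trp73, Klf6 and Tfcp2l1, they were 22 and 32 of 126 (17.5% and 25.4%). For Zeb1, Zeb2, Snai2 and Vim, genes of the mesenchymal state that OVOL factors are known to repress, they were 1 and 7 of 17 (5.88% and 41.2%). From bulge to suprabasal TAC the mesenchymal genes had 17, 8, 16 and 10 sites, Tgm1, a transglutaminase of the cell envelope, had 1, 1, 2 and 4, and Perp, a desmosomal target of p63, had 14, 13, 9 and 9. Flg and Ovol3 had no site in any list.

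Markers of other cells differed between the lists as well. From bulge to suprabasal TAC, melanocyte markers (3 of 4 genes with a site, Tyr with none in any list) held 7, 5, 12 and 22 sites, with a summed level of 35.6, 34.5, 33.9 and 36.3 FPM. Immune markers (4 of 4 genes) held 3, 5, 12 and 12 sites and summed to 6.03, 10.7, 19.7 and 14.7, with Cd3e, Cd207 and Cd74 at 0 sites in both telogen lists. Fibroblast markers (3 of 3) held 13, 8, 15 and 21 sites and summed to 24.5, 23.0, 23.1 and 24.2. Endothelial markers (3 of 3) held 25, 25, 30 and 21 sites and summed to 72.6, 84.5, 54.5 and 25.1, with Tek at 0 sites in suprabasal TACs. The part of such cells in the values at the 9 genes was not tested.

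At the edge of the 100 kb limit, the outermost Trp63 site inside it, at 98.7 kb, had 2.87, 3.35, 0.616 and 1.11 FPM in lineage order. The nearest one beyond it, at 103 kb, had 1.72 FPM in the hair germ, 1.59 in basal TACs and 2.82 in suprabasal TACs, with no peak in the bulge list.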

How the data were processed

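Peak calling by the authors used MACS2 2.1.1.20160309, per the file headers, on paired-end fragments, once per population on the pooled alignment of 2 samples, with a q-value limit of 0.05, no control, duplicates kept by the caller, an effective genome size of 1.87e9 and a 10 kb local background. Per the submitters' processing notes, mm10, Bowtie2 2.2.9 and Picard were used, and a shift of fragment ends for the transposase is not mentioned there. Each deposited list gives the summit coverage (signal), the -log10 p and q values and the fold enrichment ratio over local background, as the authors' caller wrote them. The -log10 columns had lost their names in the deposited lists, and the one after the fold enrichment was read as -log10 q from the caller's usual column order.

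Coverage was scaled to 1000000 of the fragments stated in each header (FPM). Peaks were placed by midpoint on 21627 protein-coding RefSeq gene spans (GRCm38.p6), 1 site tied between Zfp750 and Tbcd was given to Zfp750, peaks overlapping by at least 1 bp were joined into sites, and chromosomes M and Y were left out. Implied local background was computed from coverage and fold enrichment with a caller pseudocount of 1. The 4 comparisons were made with no p-value, since 1 pooled list stands for each population. Every member was described, and of its sites the text names that over a gene end, the highest, the highest in 1 list or stage, and the largest ratios in suprabasal TACs against the bulge and against basal TACs; the remaining named sites were chosen after their values were seen. The members and lists were chosen with earlier results of these data known. 1 gene of the list of other regulators is not reported here. Joining and ratios were tested on simulated data. Python 3.11.15, numpy 2.4.6, pandas 2.3.3, scipy 1.17.1 and matplotlib 3.10.9 were used.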

Additional observations from a re-analysis of the deposited data

How the results depend on the processing

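No paired analysis was possible because each list pools both samples of its population, and for the same reason no sample could be left out. Of 97 values under other settings, 75 stayed close to the reported ones, 19 moved and 3 changed sign. With peaks of -log10 q of at least 10, sites in the hair germ alone against the bulge numbered 5, sites in suprabasal TACs alone against the bulge 28, and the median log2 ratio of hair germ to bulge was -0.0702. Within 20 kb, 7 sites were in the hair germ alone against the bulge, 7 in the hair germ alone against basal TACs and 10 in the bulge alone against suprabasal TACs, and the median log2 ratio of suprabasal to basal TACs was 0.15. With a fold limit of 1.5, 21 sites passed for hair germ against bulge, and 42 each for basal TACs against hair germ and suprabasal against basal TACs. Relative to all shared sites, 15 passed for basal TACs against hair germ.

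A pair of settings was added after seeing the data. Without Trp63, 7 and 8 sites were in the hair germ and the bulge alone, 10 in basal TACs alone against the hair germ, 5 in basal TACs alone against suprabasal TACs and 30 in suprabasal TACs alone against the bulge. By fold enrichment, 1, 4, 11 and 13 sites passed 2-fold for hair germ against bulge, basal TACs against hair germ, suprabasal against basal TACs and suprabasal TACs against bulge, of which 0, 1, 1 and 1 were higher and 1, 3, 10 and 12 lower. Shares of all shared sites past 2-fold by this measure were not counted. The medians by fold enrichment were -0.0801 for hair germ against bulge and -0.0009 for basal TACs against hair germ. The cause of these differences was not tested. With 11053351 fragments, the hair germ list had the least power to hold weak sites, and the intervals given cover counting error alone. Levels of 1 pooled list per population say nothing of the spread between mice.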

Other observations

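Sites continued beyond 100 kb at the genes next to large gene-free stretches. Between 100 and 200 kb, 29 further sites had a member as nearest protein-coding gene, 14 at Klf5, 11 at Klf4 and 2 each at Trp63 and Grhl2. At Klf5, 7 of the 14 were held by suprabasal TACs alone, and the lists held 5, 5, 4 and 10 from bulge to suprabasal TAC. The highest of the 7, at 159 kb, had 1.57 FPM. The Klf5 site at 143 kb had 2.37, 3.44, 0.973 and 3.55 FPM in lineage order, lowest in basal TACs. At Klf4 the order of the counts was nearly the opposite, with 7, 5, 6 and 4 sites. The strongest of these Klf4 sites, 119 kb away, had 9.52, 7.51, 3.15 and 2.30 FPM, lower at each step. A Trp63 site at 106 kb was held by suprabasal TACs alone, at 3.09 FPM.

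Among genes of epithelial differentiation, site counts differed in direction. Tgm3, a transglutaminase of the hair and epidermal envelope, held 6, 4, 9 and 15 in lineage order, Esrp1, a splicing factor of epithelial cells, 4, 5, 9 and 11, and Cdh1, E-cadherin, 12, 13, 12 and 15. Epcam, an epithelial adhesion molecule, had 13, 10, 7 and 7. Zeb1, a repressor of the epithelial state, had 7, 2, 4 and 2 sites, and Zeb2 had 6, 3, 6 and 3.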
